A study of Mus musculus with 16 samples.

Results

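The cholesterol and lipid synthesis genes described here are 33 named genes of cholesterol building, its control and movement, and fatty acid synthesis and desaturation. Membership was set by gene name and not by a threshold on measured values, although earlier results of these data were known when the list was made. Of these, 32 had a probe set in the deposited array values, 1 probe set per gene by the highest mean signal, and all 32 passed the filter on low signals, out of 12172 genes that did. Acat2 had no probe set under this symbol in the annotation used. The genes were measured on 16 Affymetrix mouse arrays from cultured ovarian follicles of C57BL/6Tac females, labelled as 8 weeks old, while the design text gives a range of 6 to 8 weeks. There were 4 groups of 4 arrays: follicles cultured for 24 h with 50 ng/ml recombinant anti-Müllerian hormone (AMH), control follicles cultured for 24 h with 0 ng/ml, follicles cultured for 12 h with 50 ng/ml AMH and control follicles cultured for 12 h with 0 ng/ml. All 4 groups had follicle-stimulating hormone (FSH, 80 IU/L) and luteinizing hormone (LH, 10 IU/L) in the medium. Follicles were dissected whole, between the preantral and small antral stages, and each array held 6 to 9 of them from a pool of 8 mice. Both arms were drawn from the same pool, per the labels' protocols, and a treated and a control array with the same replicate number and time were taken as a pair. At 24 h the deviations from the group means correlated below 0 within pairs 1 and 4 (-0.437 and -0.287).

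Cells make cholesterol from acetyl-CoA through mevalonate, isoprenoids and squalene, which is closed into the sterol ring and then trimmed to cholesterol. The transcription factors SREBP1 and SREBP2 switch on the genes of these steps, and of fatty acid synthesis, when SCAP escorts them out of the endoplasmic reticulum; INSIG proteins hold SCAP back when sterols are plentiful. In the ovary, granulosa and theca cells use cholesterol to make steroid hormones, and mouse oocytes depend on the surrounding cumulus cells for cholesterol. AMH belongs to the TGF-β family and comes from the granulosa cells of small follicles.

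Promoter entries in the RefSeq table supplied for build GRCm38.p6 matched 26 of the 33 genes, with 34 start sites. The following 6 entries give the 250 bases before the start site of 3 genes whose signals rose with time in control follicles (Tm7sf2, Hsd17b7, and Scap at the second of its 2 starts), of Hmgcs1 and Cyp51, 2 of the 3 genes with the smallest p for AMH at 24 h, and of Lss, which followed the other genes closely from array to array. They are shown because these genes carry the results. Each runs 5′ to 3′ along its own gene, and capitals mark the CCAAT box, the GC box (GGGCGG) or the sterol regulatory element (TCACNCCAC), each on either strand.
Hmgcs1, chr13:119690101-119690350, plus strand: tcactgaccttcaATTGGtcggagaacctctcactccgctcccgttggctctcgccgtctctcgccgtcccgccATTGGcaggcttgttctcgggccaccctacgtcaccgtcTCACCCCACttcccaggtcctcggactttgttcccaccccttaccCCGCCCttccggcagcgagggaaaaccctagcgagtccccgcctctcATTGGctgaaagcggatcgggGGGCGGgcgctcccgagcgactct
Lss, chr10:76531355-76531604, plus strand: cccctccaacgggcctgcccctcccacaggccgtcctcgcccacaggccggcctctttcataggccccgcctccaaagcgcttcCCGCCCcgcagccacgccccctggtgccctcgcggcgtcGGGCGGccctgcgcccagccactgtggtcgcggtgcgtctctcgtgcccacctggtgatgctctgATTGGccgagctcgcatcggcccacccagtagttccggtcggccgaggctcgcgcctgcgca
Cyp51, chr5:4104698-4104947, minus strand: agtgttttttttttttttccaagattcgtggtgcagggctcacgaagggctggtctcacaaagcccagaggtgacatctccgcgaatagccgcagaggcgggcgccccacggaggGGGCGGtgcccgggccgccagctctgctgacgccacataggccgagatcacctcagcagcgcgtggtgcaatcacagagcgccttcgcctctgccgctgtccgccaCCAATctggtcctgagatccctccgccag
Tm7sf2, chr19:6067851-6068100, minus strand: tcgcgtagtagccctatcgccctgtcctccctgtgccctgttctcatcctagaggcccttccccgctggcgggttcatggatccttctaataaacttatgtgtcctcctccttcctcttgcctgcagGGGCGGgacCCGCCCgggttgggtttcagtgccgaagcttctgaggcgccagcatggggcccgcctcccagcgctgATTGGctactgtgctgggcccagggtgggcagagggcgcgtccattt
Hsd17b7, chr1:169969206-169969455, minus strand: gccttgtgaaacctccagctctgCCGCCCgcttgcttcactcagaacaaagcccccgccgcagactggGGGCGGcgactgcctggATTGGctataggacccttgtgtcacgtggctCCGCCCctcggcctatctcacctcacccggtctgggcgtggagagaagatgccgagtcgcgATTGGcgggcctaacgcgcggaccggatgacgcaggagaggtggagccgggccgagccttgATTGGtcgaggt
Scap, chr9:110333106-110333355, plus strand: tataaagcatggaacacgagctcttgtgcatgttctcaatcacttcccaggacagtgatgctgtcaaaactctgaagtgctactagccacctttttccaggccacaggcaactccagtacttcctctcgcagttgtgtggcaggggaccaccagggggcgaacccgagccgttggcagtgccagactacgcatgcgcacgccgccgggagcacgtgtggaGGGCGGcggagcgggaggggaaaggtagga
The sterol regulatory element spelled this way was found in 1 of the 34 member promoters (2.94%), that of Hmgcs1, starting at position -137 from the start site. It was found in 1.24% of all 32851 promoters in the table. CCAAT was found in 61.8% of member promoters and 37.4% of all promoters, and GGGCGG in 76.5% of member promoters and 35.7% of all promoters. Among the 12607 promoters of the genes tested on these arrays the shares were 1.15% for the sterol element, 37.7% for CCAAT and 62.2% for GGGCGG. All shares were counted over the full window of 300 bases, of which 50 lie after the start site, and a match of letters is no measured binding site.

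The median signal per array lay between 27.8 and 40.2. Replicate arrays of a group correlated at 0.923 to 0.977 over the log2 signals, which is a description across genes. Markers of the labelled tissue were measured: all 11 oocyte markers (such as Zp3 and Gdf9) and 9 of 10 granulosa markers passed the filter, while Cyp19a1 did not. The oocyte markers stood apart on some arrays. Their mean log2 signal was 9.09, 7.49, 7.85 and 7.78 in AMH-treated follicles at 24 h (replicates 1 to 4), against 8.09, 7.72, 7.79 and 9.18 in controls at 24 h. At 12 h it was 8.08, 8.35, 8.63 and 8.21 in AMH-treated follicles, against 8.71, 8.39, 9.58 and 7.30 in controls. The highest and the lowest array differed by 4.85-fold.

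The first question was how these genes stood after 24 h of culture compared with 12 h. Of the 32 genes, 1 rose and none fell in AMH-treated follicles, and 4 rose and none fell in control follicles, at an adjusted p of at most 0.05 (limma, Benjamini-Hochberg over all genes tested). Tm7sf2, which encodes a sterol C14 reductase of the ring-trimming steps, rose in both arms. Scap, the SREBP escort, Hsd17b7, a ketoreductase of cholesterol synthesis, and Acaca, the acetyl-CoA carboxylase that commits carbon to fatty acids, rose in the control arm. Members called made up 3.12% of 32 in AMH-treated follicles, against 8.28% of all genes tested, and 12.5% in control follicles, against 19.1% of all genes tested. Counting higher genes alone, 4.34% of all genes tested rose in AMH-treated follicles and 9.96% in control follicles, so the shares called among these genes were near or below those of the array as a whole. With whole follicles on each array, more or fewer cells of a type and more or less RNA per cell cannot be told apart.

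**Figure D1:**
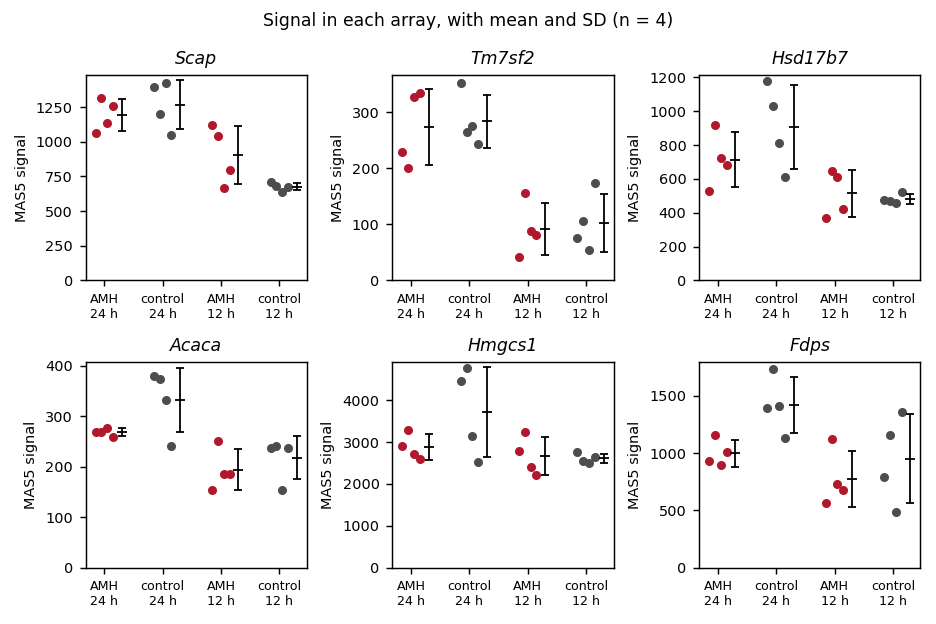
MAS5 signal (linear axis from 0) of 6 genes in each array, with AMH-treated groups in red and controls in grey, and black bars for the mean and SD of 4 arrays. Scap and Hsd17b7 lie higher in every control array at 24 h than in any control array at 12 h, and Tm7sf2 does so in both arms.

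Scap had signals of 1397, 1198, 1424 and 1047 in controls at 24 h (replicates 1 to 4), against 709, 680, 641 and 676 in controls at 12 h. The groups did not overlap, and the 12 h controls lay close together, with a mean of 677 ± 28.1 (SD, n = 4) against 1267 ± 178 at 24 h. The log2 change was 0.89 ± 0.14 (standard error, SE), or 1.86-fold, with an adjusted p of 0.000711 from limma, and this call held under every alternative tried, with changes from 0.71 under median centring to 0.98 with array weights. In AMH-treated follicles Scap had 1065, 1317, 1136 and 1260 at 24 h, against 1120, 1040, 669 and 798 at 12 h. These groups overlapped, since replicates 1 and 2 at 12 h were already high, and the change of 0.42 ± 0.14 missed the threshold (limma adjusted p 0.0812).

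Tm7sf2 had signals of 230, 201, 327 and 335 in AMH-treated follicles at 24 h, against 42.5, 155, 87.7 and 80.8 in AMH-treated follicles at 12 h. In controls it had 351, 265, 275 and 243 at 24 h, against 76.1, 107, 53.5 and 173 at 12 h. Neither arm overlapped between the times. Groups that did not overlap were found for 3 of the 32 genes with AMH (Tm7sf2 and Acaca higher, Cyp51 lower), beside 15.1% of all genes tested, and for 3 in controls, beside 22.3%. For Tm7sf2 this was the largest fold change among the 32 genes in both arms. The log2 change was 1.67 ± 0.35 (SE) with AMH, 3.18-fold (limma adjusted p 0.00827), and 1.58 ± 0.35 in controls, 2.98-fold (limma adjusted p 0.00595). The call in AMH-treated follicles was lost without replicate 3 (adjusted p 0.0547), without replicate 4 (0.0542) and without 24 h pairs 1 and 4 (0.0974), with changes of 1.60, 1.55 and 1.61. The call in controls was lost without replicate 3 (1.32, adjusted p 0.0577) and without 24 h pairs 1 and 4 (1.52, adjusted p 0.0634).

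Hsd17b7 had signals of 1176, 1030, 810 and 608 in controls at 24 h, against 473, 470, 455 and 524 in controls at 12 h. The lowest 24 h control lay above the highest 12 h control, and the change was 0.87 ± 0.21 (SE), 1.83-fold (limma adjusted p 0.00999). Its 2 other probe sets over the filter gave 0.87 and 0.73. The call was lost without replicate 2 (0.79, adjusted p 0.0524) and without replicate 3 (0.88, adjusted p 0.0557). In AMH-treated follicles it had 527, 921, 720 and 682 at 24 h, against 369, 649, 613 and 424 at 12 h, groups that overlapped (0.48 ± 0.21, limma adjusted p 0.178). Its 2 other probe sets gave 0.71 and 0.54 in that arm.

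Acaca had signals of 379, 374, 333 and 242 in controls at 24 h, against 237, 242, 154 and 237 in controls at 12 h. Replicate 4 at 24 h reached only the level of the upper 12 h arrays, and the change was 0.61 ± 0.18 (SE), 1.52-fold (limma adjusted p 0.0258). This call was the least stable of the 4: adjusted p was 0.0862, 0.0795 and 0.179 without replicates 1, 2 and 3, 0.141 under median centring (a change of 0.43), 0.0918 for the mean of its probe sets (0.47), 0.0611 with only the 8 control arrays in the fit and 0.0545 without 24 h pairs 1 and 4. In AMH-treated follicles it had 270, 269, 276 and 258 at 24 h, against 155, 251, 186 and 186 at 12 h, groups that did not overlap (0.48 ± 0.18, limma adjusted p 0.104).

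Of the other enzymes, Hmgcs1, which makes the HMG-CoA from which mevalonate is formed, had 4463, 4761, 3144 and 2518 in controls at 24 h, against 2756, 2547, 2504 and 2640 in controls at 12 h. Its 12 h controls were tight and replicate 4 at 24 h lay within their range, so the change of 0.46 ± 0.17 missed the threshold (limma adjusted p 0.0631). It passed with the mean of 5 probe sets (0.81, adjusted p 0.0128), under quantile normalization (0.00496), with the replicate block (0.0164) and without replicate 4 (0.64, adjusted p 0.0229). Fdps, which joins isoprene units into farnesyl diphosphate, had 1393, 1734, 1409 and 1134 in controls at 24 h, against 793, 1158, 487 and 1360 in controls at 12 h. Those ranges overlapped, and the change was 0.67 ± 0.26 (limma adjusted p 0.0829). It passed with the replicate block (adjusted p 0.0427), with array weights (0.53, adjusted p 0.0385) and without replicate 4 (0.97, adjusted p 0.045). With AMH, Hmgcs1 changed in time by 0.12 ± 0.17 and Fdps by 0.40 ± 0.26 (limma adjusted p 0.723 and 0.38). The other probe sets of Hmgcs1 gave 0.32 to 0.49 in that arm.

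By role, most genes of the synthesis steps lay above 0, beside 48.1% of all genes tested with AMH and 48.6% in controls. At the threshold, 4.34% of all genes tested rose with AMH and 9.96% in controls. All 6 measured mevalonate and isoprenoid genes lay above 0 in both arms, with a median change of 0.24 in AMH-treated follicles and 0.46 in controls, and none passed the test. Of the 11 squalene and sterol genes, 9 lay above 0 with AMH (median 0.16) and all 11 in controls (median 0.28), of which 1 and 2 rose. Of the 7 fatty acid genes, all 7 lay above 0 with AMH (median 0.27) and 6 in controls (median 0.28), of which 0 and 1 rose. Fasn, the fatty acid synthase itself, had signals of 682, 640, 825 and 771 in AMH-treated follicles at 24 h, against 445, 696, 627 and 540 in AMH-treated follicles at 12 h. These ranges overlapped, and the change was 0.35 ± 0.13 (limma adjusted p 0.113). Fads2, the delta-6 desaturase of long unsaturated fatty acids, had 474, 616, 627 and 606 with AMH at 24 h, against 207, 563, 462 and 391 with AMH at 12 h. Replicate 1 was the lowest at both times, the ranges overlapped, and the change was 0.60 ± 0.23 (limma adjusted p 0.123).

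None of the remaining synthesis genes passed in either arm. Among mevalonate genes, Mvd, the mevalonate diphosphate decarboxylase, changed by 0.51 ± 0.27 with AMH and 0.51 ± 0.27 in controls, and Pmvk, the phosphomevalonate kinase, by 0.35 ± 0.26 and 0.40 ± 0.26. Idi1, the isopentenyl diphosphate isomerase, changed by 0.07 ± 0.16 with AMH and 0.12 ± 0.16 in controls. Early in sterol synthesis, the squalene synthase gene Fdft1 and the squalene epoxidase gene Sqle lay between 0.05 and 0.20 in both arms. Among the trimming enzymes, Msmo1, a C4 methyl oxidase, changed by 0.27 ± 0.18 with AMH and 0.46 ± 0.18 in controls (limma adjusted p 0.0892 for controls), and Ebp, the sterol isomerase, by 0.39 ± 0.26 and 0.57 ± 0.26. Nsdhl, a C4 decarboxylating dehydrogenase, changed by 0.12 ± 0.24 with AMH and 0.28 ± 0.24 in controls, and Sc5d by 0.01 in both arms. Other probe sets of Sc5d over the filter lay higher, at 0.37 and 0.35 with AMH and at 0.67 and 0.44 in controls. Among fatty acid genes, Acly, which supplies acetyl-CoA from citrate, changed by 0.07 ± 0.13 with AMH and 0.28 ± 0.13 in controls, and Scd2 by 0.27 ± 0.17 and 0.31 ± 0.17. Elovl6, an elongase, lay at 0.06 ± 0.25 with AMH and -0.02 ± 0.25 in controls.

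The regulators and carriers were mixed. Scap rose in controls as described, and the other regulators lay closer to 0 or below it. Srebf2, which encodes the SREBP that mainly serves cholesterol genes, changed by -0.06 ± 0.13 with AMH and -0.15 ± 0.13 in controls, and its second probe set gave -0.06 and 0.30. Srebf1, whose products mainly serve fatty acid genes, changed by -0.35 ± 0.21 with AMH and -0.32 ± 0.21 in controls. Insig1 and Insig2 changed by -0.09 and 0.05 with AMH and by 0.03 and 0.13 in controls. Stard4, a sterol carrier, and Npc1, which exports cholesterol from lysosomes, lay between -0.11 and 0.17 in both arms. Abca1, a cholesterol pump, changed by 0.79 ± 0.36 with AMH and -0.01 ± 0.36 in controls. Apart from Scap in controls, none of these 8 genes passed the test in either arm.

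Over all 32 genes, 27 lay above 0 in each arm, with medians of 0.14 for AMH-treated follicles and 0.27 for controls, beside 48.1% and 48.6% of all genes tested and medians of -0.02 and -0.01. Centring each array on its median moved all genes together in controls, to a median of -0.19 for all genes and 0.09 for the 32 genes, 13 of which then lay below 0. Without replicate 3 the control median was 0.15, and without replicate 4 it was 0.40. Markers of other cells also moved with time: 6 of 9 granulosa markers rose in controls (median change 1.07) and 3 of 9 with AMH (1.04), and 5 and 2 of 8 stroma markers rose (0.81 in controls and 0.91 with AMH). Of the granulosa markers 8 of 9 lay above 0 in each arm. The exception was the Amh gene, at -1.08 ± 0.47 in controls and -1.56 ± 0.47 with AMH (limma adjusted p 0.12 and 0.052). Of 5 theca and steroidogenic markers 1 rose in each arm. Other lists held falls: 2 of 6 surface epithelium markers in each arm, 2 of 6 immune markers in controls and 1 with AMH, and 1 of 7 endothelium markers in controls and 0 with AMH. The summed signal of the granulosa markers ranged from 8420 to 15455 with AMH at 24 h and from 7952 to 13683 in controls at 24 h, against 3660 to 9071 with AMH at 12 h and 2934 to 7077 in controls at 12 h. For the 8 stroma markers it ranged from 6586 to 9754 and from 5615 to 8220 at 24 h with AMH and in controls, against 4043 to 6153 and 2043 to 5388 at 12 h. None of the 11 oocyte markers passed in either arm. The part of these cell types in the changes above was not tested. Adjusting for the oocyte markers alone again gave 1 call with AMH and 4 in controls. That fit held no granulosa or stroma markers, and a count does not show which genes were called.

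**Figure D2:**
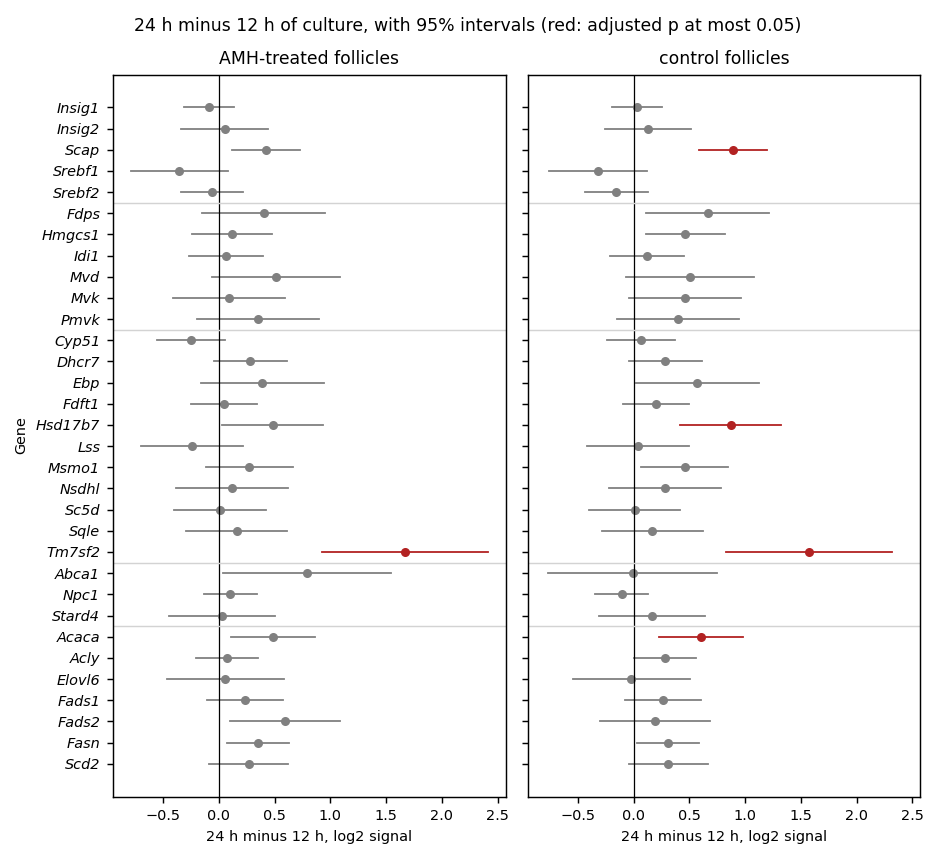
Change in log2 signal at 24 h minus 12 h for the 32 genes, in AMH-treated follicles (left) and control follicles (right), with 95% intervals from limma and red for an adjusted p of at most 0.05. Most points lie right of 0 in both panels, with 27 of 32 above 0 in each, while Srebf1 and Srebf2 lie left of it.

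The second question was which of these genes differed between AMH-treated and control follicles from the same pool. After 24 h with AMH, 0 of 32 genes passed the test, beside 0.0164% of all genes tested, and after 12 h 0 of 32 passed, beside 0% (limma, paired arrays). At an unadjusted p under 0.05, which allows many chance calls, there were 3 of the 32 genes at 24 h beside 4.07% of all genes, and 2 of the 32 at 12 h beside 6.47%. A miss of the threshold does not show that AMH left these genes as they were.

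At 24 h the synthesis enzymes lay below their controls on average over the pairs. All 6 mevalonate genes, all 11 sterol genes and all 7 fatty acid genes had a mean change below 0, with medians of -0.26, -0.24 and -0.13. Over the 32 genes 28 lay below 0, with a median of -0.19, beside 48.4% of all genes tested and a median of 0.01. The size of this shift depended on the pairs: without replicate 1 the median was -0.09, and without replicate 4 it was -0.26. Its direction also varied between pairs. In pair 4, all 7 fatty acid genes, 6 of 11 sterol genes and 3 of 6 mevalonate genes were higher with AMH, and in pair 3, 5 of 11 sterol genes were. Median centring moved all genes together, to a median of 0.12, and that of the 32 genes to -0.07, with 22 below 0. Leaving out 24 h pairs 1 and 4, which hold the 2 oocyte-rich arrays of that time, gave -0.16 with 25 genes below 0. Markers of some other cells lay above their controls at 24 h with AMH: all 8 stroma markers (median 0.39), all 6 measured immune markers (0.68) and 6 of 7 endothelium markers (0.35). Of 9 granulosa markers 6 lay above 0 (0.08), and of 6 surface epithelium markers 3 did (-0.08). In contrast, 10 of 11 oocyte markers lay below 0 (-0.16). The theca and steroidogenic markers were split, with 3 of 5 below 0 (-0.18) and Cyp17a1 at 1.32 ± 0.32 (limma adjusted p 0.652). None of these markers passed. The summed signal of the stroma markers was 6586 to 9754 with AMH against 5615 to 8220 in controls, and that of the endothelium markers 795 to 1401 against 684 to 1063. Their part in the shift was not tested.

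Hmgcs1 had signals of 2917, 3300, 2714 and 2591 with AMH at 24 h, against 4463, 4761, 3144 and 2518 in controls. The treated array was lower in pairs 1 to 3 and slightly higher in pair 4. The change was -0.33 ± 0.12 (SE; limma adjusted p 1), and the 4 other probe sets of the gene gave -0.42 to -0.74. Fdps had 928, 1161, 892 and 1007 with AMH, against 1393, 1734, 1409 and 1134 in controls. It was lower with AMH in 4 of 4 pairs, although the ranges overlapped slightly, with a change of -0.50 ± 0.20 (limma adjusted p 1).

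Cyp51, the sterol 14-alpha demethylase, had signals of 1312, 1526, 1510 and 1481 with AMH at 24 h, against 1986, 1926, 1852 and 1587 in controls. Every treated array lay below every control, with a change of -0.33 ± 0.15 (limma adjusted p 1). Insig1 had 2154, 2145, 2177 and 2073 with AMH, against 2777, 2336, 2369 and 2235 in controls. These groups did not overlap either, and the change was small at -0.18 ± 0.10 (limma adjusted p 1). Such a gap with AMH lower was found in 2 of the 32 genes, beside 0.592% of all genes tested, and all 4 pairs lower in 3 of them (Fdps, Cyp51 and Insig1), beside 3.44%. Acaca changed by -0.28 ± 0.16, with signals of 270, 269, 276 and 258 with AMH, against 379, 374, 333 and 242 in controls, which overlapped. The other probe set of Acaca over the filter gave -0.03.

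Abca1, the membrane pump that passes cholesterol to apolipoproteins, lay on the other side. It had signals of 385, 867, 1098 and 657 with AMH at 24 h, against 575, 378, 363 and 430 in controls. The treated array was higher in pairs 2 to 4 and lower in pair 1, with a change of 0.71 ± 0.33 (limma adjusted p 1). Its 2 other probe sets gave 0.86 and 0.96. It was the largest change in size among the 32 genes at 24 h, at 1.13 without replicate 1, 0.41 without replicate 3 and 1.40 without pairs 1 and 4. Abca1 is also active in macrophages; the 6 measured immune markers all lay above 0 with AMH at 24 h (median 0.68, none passed), with a summed signal of 391 to 1029 with AMH against 316 to 479 in controls, while Ptprc and C1qa were not measured over the filter. The part of immune cells in the Abca1 values was not tested.

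At 12 h, 24 of the 32 genes lay below 0 with AMH, with a median of -0.09, beside 48% of all genes tested and a median of 0.01. That direction rested on single pairs: the median was 0.01 without replicate 1, 0.04 without replicate 4 and -0.28 without replicate 3. Scap had signals of 1120, 1040, 669 and 798 with AMH at 12 h, against 709, 680, 641 and 676 in controls. It was higher with AMH in 4 of 4 pairs, as were 10.2% of all genes tested, and the change was 0.39 ± 0.14 (limma adjusted p 0.668). Fads2 had 207, 563, 462 and 391 with AMH, against 492, 623, 458 and 684 in controls. The lower mean came from pairs 1, 2 and 4, with a change of -0.54 ± 0.19 (limma adjusted p 0.669), while its other probe sets gave -0.06 and -0.27.

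The next genes by p at 12 h were Fads1, the delta-5 desaturase, at -0.15 ± 0.12, Dhcr7, which makes cholesterol from its last precursor, at -0.19 ± 0.16, Fdps at -0.23 ± 0.20 and Srebf2 at -0.16 ± 0.14 (limma adjusted p 0.886 to 0.89). Dhcr7 had 917, 1134, 1424 and 1062 with AMH at 12 h, against 1293, 1524, 974 and 1410 in controls, higher with AMH in pair 3 alone. Fads1 had 1338, 2012, 1429 and 1423 with AMH, against 1784, 1919, 1245 and 1923 in controls. Srebf2 had 478, 760, 720 and 609 with AMH, against 745, 763, 587 and 740 in controls. Fdps had 567, 1124, 734 and 676 with AMH, against 793, 1158, 487 and 1360 in controls. In all 4 genes pair 3 ran against pairs 1 and 4, and the groups overlapped.

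The AMH effect at 24 h minus that at 12 h passed in 0 of the 32 genes, beside 0% of all genes tested (limma). The smallest p belonged to Scap, with a difference of -0.47 ± 0.20 (SE; adjusted p 0.85), which is also the test of whether its change in time differed between the arms: higher with AMH at 12 h, and close to controls at 24 h. Hmgcs1 followed at -0.34 ± 0.17, Abca1 at 0.80 ± 0.47, Mvk, the mevalonate kinase, at -0.37 ± 0.24, Cyp51 at -0.32 ± 0.21 and Fads2 at 0.40 ± 0.27 (adjusted p 0.893 to 0.935). Mvk had 242, 211, 279 and 170 with AMH at 24 h, against 239, 330, 345 and 193 in controls, and 171, 318, 199 and 173 with AMH at 12 h, against 175, 234, 146 and 241 in controls. For Tm7sf2, called in both arms in time, the difference was 0.09 with a 95% interval from -0.84 to 1.03. At an unadjusted p under 0.05 there was 1 of the 32 genes, Scap, beside 5.64% of all genes tested. The median over the 32 genes was -0.07, with 24 below 0 beside 50.5% of all genes, and leaving out replicate 3 or 4 moved it to 0.08 or -0.39. Under median centring it was 0.09, with all genes at 0.15.

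The pairs differed among themselves. At 24 h, 28, 27 and 21 of the 32 genes were lower with AMH in pairs 1, 2 and 3, with medians of -0.52, -0.25 and -0.11, and 23 were higher in pair 4 (0.10). At 12 h, 27 were lower with AMH in pair 1 (-0.43) and 30 in pair 4 (-0.44), while 20 were higher in pair 2 (0.07) and 30 in pair 3 (0.43). Over all genes tested, between 47% and 50.7% were lower with AMH in each of the 8 pairs. In 24 h pairs 1 and 2 and 12 h pairs 1, 3 and 4, at least 27 genes thus shared a direction. At 12 h, pair 3 ran opposite to pairs 1 and 4. In the other 3 of the 8 pairs smaller majorities shared a direction, and the medians lay within 0.11 of 0.

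**Figure D3:**
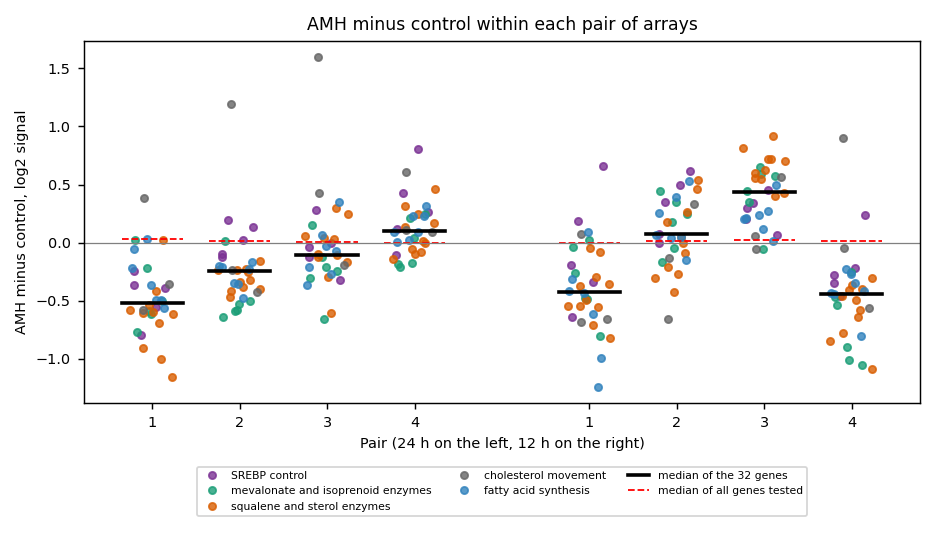
AMH minus control in log2 signal within each pair, 24 h on the left and 12 h on the right, with 1 point per gene coloured by role, a black line at the median of the 32 genes and a red dashed line at that of all genes tested. The black line runs from -0.52 to 0.10 over the 24 h pairs and from -0.44 to 0.43 over the 12 h pairs, and the red line stays near 0.

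The same joint movement stood in the single arrays. Among controls at 12 h, 30 of 32 genes lay below their group mean in replicate 3 (median deviation -0.44) and 30 lay above it in replicate 4 (0.23). Among AMH-treated follicles at 12 h, 27 lay below in replicate 1 (-0.30) and 30 above in replicate 2 (0.32). Among controls at 24 h, 29 lay below in replicate 4 (-0.25), and among AMH-treated follicles at 24 h, 25 lay below in replicate 1 (-0.15). Of all genes tested, between 44.9% and 56.8% lay above their group mean in any array.

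The 3 enzyme groups shared this pattern in some arrays and parted in others. All 11 sterol enzymes lay below their group mean in AMH-treated replicate 1 and control replicate 3 at 12 h and in control replicate 4 at 24 h, and all 11 lay above it in AMH-treated replicate 2 and control replicate 4 at 12 h. All 6 mevalonate genes lay below it in control replicate 4 at 24 h and in AMH-treated replicate 4 and control replicate 3 at 12 h, and above it in AMH-treated replicate 2 and control replicate 4 at 12 h. All 7 fatty acid genes lay below it in control replicate 3 at 12 h. They lay above it in control replicate 2 at 24 h and in AMH-treated replicate 2 and control replicate 4 at 12 h. The groups parted in AMH-treated replicate 3 at 12 h, where 10 of 11 sterol, 2 of 6 mevalonate and 3 of 7 fatty acid genes lay above the group mean. In AMH-treated replicate 3 at 24 h, 10 of 11 sterol, 3 of 6 mevalonate and 5 of 7 fatty acid genes did. In AMH-treated replicate 2 at 12 h the median deviation was 0.56 for mevalonate, 0.40 for fatty acid and 0.30 for sterol genes, and in control replicate 3 it was -0.53, -0.43 and -0.58. Lss, the lanosterol synthase that closes the ring, had 889, 1302, 1196 and 1134 with AMH at 24 h, against 1667, 1801, 1301 and 1030 in controls. At 12 h it had 1035, 1826, 1384 and 1179 with AMH, against 1508, 1612, 913 and 1621 in controls. For this probe set the range within each group was thus wider than the mean change in time, which was -0.24 ± 0.22 with AMH and 0.04 ± 0.22 in controls. Other probe sets of Lss over the filter changed by -0.22 and 0.05 with AMH, and by 0.007 and 0.41 in controls.

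A count of arrays describes how closely each gene followed the rest. A gene was scored by the number of the 16 arrays in which its deviation from its group mean had the sign of the median deviation of the other members. The count was at least 13 for 15 of the 32 genes, beside 2.15% of all genes tested, and its median was 12 for the members and 8 for all genes. The genes most like the rest by this measure were Cyp51, Lss and Sc5d, the sterol C5 desaturase, each with 15 arrays. By role, 9 of 11 sterol genes reached 13 arrays, 3 of 6 mevalonate genes, 2 of 7 fatty acid genes, 1 of 5 SREBP control genes (Insig1) and 0 of 3 genes of cholesterol movement. Npc1 with 7 arrays, and Abca1 and Hmgcs1 with 9 each, followed least. The arrays share pools, scaling and cell makeup, so the count is a description with no test.

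**Figure D4:**
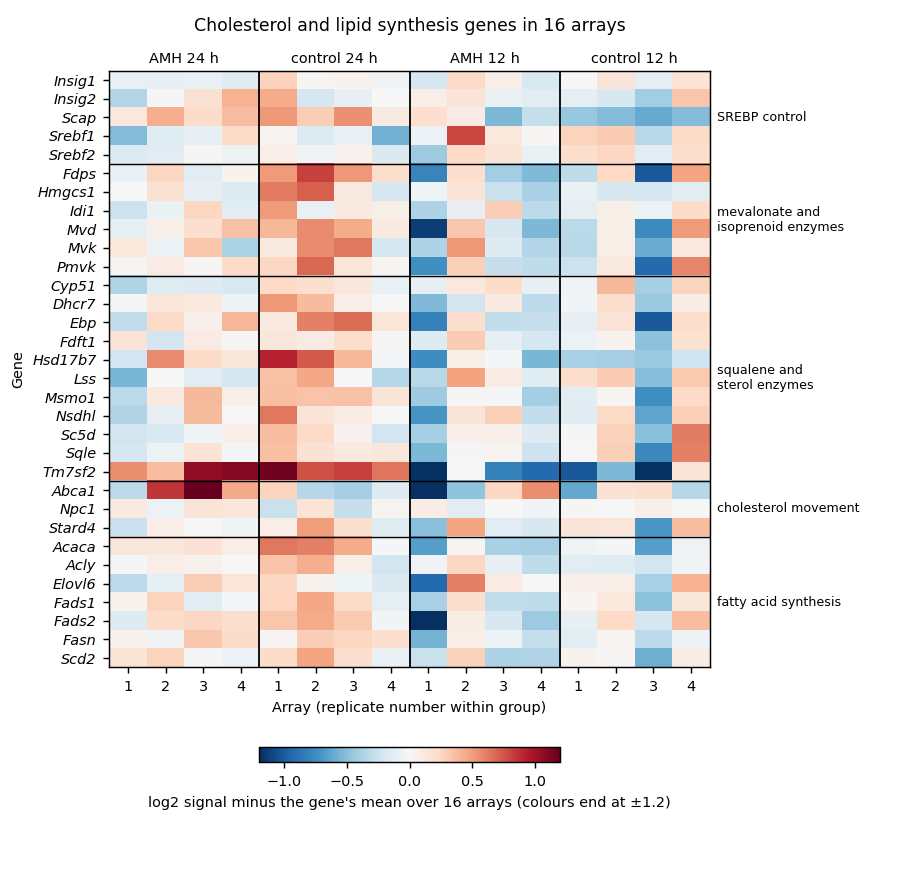
Heat map of 32 genes (rows, by role) in 16 arrays (columns, by group and replicate number), coloured by log2 signal minus the gene's mean over all arrays. Nearly whole columns are blue in AMH-treated replicate 1 and control replicate 3 at 12 h, where 27 and 30 of 32 genes lay below their group mean.

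Oocyte markers moved with some of these arrays. The arrays with low synthesis genes in controls at 12 h (replicate 3), controls at 24 h (replicate 4) and AMH-treated follicles at 24 h (replicate 1) had the highest oocyte mean of their groups, 9.58, 9.18 and 9.09. Control replicate 4 at 12 h, with high synthesis genes, had the lowest of all, 7.30. The AMH-treated arrays at 12 h did not follow this: replicates 1 and 4, with 27 and 28 of 32 genes below the group mean, had the lowest oocyte means of the group, 8.08 and 8.21. Replicate 2, with 30 genes above the group mean, had 8.35, and replicate 3, with 19 above, had the highest, 8.63. When the oocyte mean entered the fit as a covariate, the median change with AMH over the 32 genes was -0.23 at 24 h and -0.12 at 12 h, and 0 genes passed at either time.

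Further genes of the pathway, outside the 33, were counted from 3 lists of 38 genes by function, of which 31 were measured. None of the 31 passed with AMH at 24 h or at 12 h (limma). In time, Mlxipl, a carbohydrate-sensing activator of lipid genes, rose with AMH by 0.99 ± 0.29 (limma adjusted p 0.0448). In controls its change was similar, at 0.80 ± 0.29, and missed the threshold (limma adjusted p 0.0622). Erlin1, which takes part in sterol-driven protein degradation at the endoplasmic reticulum, fell with AMH by 0.45 ± 0.10 and in controls by 0.74 ± 0.10 (limma adjusted p 0.0147 and 0.000287).

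In controls 3 of 12 further synthesis genes rose and 1 fell, with 1 and 1 of 8 SREBP processing genes and 1 and 1 of 11 genes of uptake, storage and efflux. These are 33.3%, 25% and 18.2% called, beside 19.1% of all genes tested. Acss2, which makes acetyl-CoA from acetate, rose by 1.14 ± 0.39. Gpam, of glycerolipid synthesis, rose by 1.03 ± 0.31, and Me1, malic enzyme, rose by 0.85 ± 0.22, while Lbr, whose sterol reductase domain shares the step of Tm7sf2, fell by 0.81 ± 0.23 (limma adjusted p 0.0136 to 0.0486). Among SREBP processing genes, Mbtps1, the site-1 protease that cuts SREBP, rose by 0.48 ± 0.11 in controls (limma adjusted p 0.00569), beside the fall of Erlin1. For uptake, storage and efflux, Nr1h3, a sterol-sensing nuclear receptor, rose by 0.71 ± 0.21 and Lrp8, a lipoprotein receptor, fell by 0.65 ± 0.21 in controls (limma adjusted p 0.0258 and 0.0383). With AMH, Acss2, Gpam, Me1 and Nr1h3 changed in time by 0.48, 0.52, 0.49 and 0.62. Lbr, Mbtps1 and Lrp8 changed by -0.43, 0.17 and -0.07 with AMH, and none of these genes passed there. Median changes of the 3 lists in controls were 0.45, 0.16 and 0.17. Of these 31 genes, Scarb1, the receptor for high-density lipoprotein, alone followed the members in at least 13 arrays, with 15 of 16.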

How the data were processed

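Each of the 16 arrays started from 5 ng of total RNA, amplified and then biotin-labelled, per the labels' protocols. The authors deposited linear MAS5 signal intensities, 1 value per probe set, per the submitters' processing notes; no MAS5 version is given in the sources used here. Each array had a trimmed mean of 150.001 (2% trimmed at each end). Detection calls were not analysed here.

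Of 45101 probe sets, 64 were controls, 34945 had 1 gene symbol in the annotation table supplied, 932 had several and 9160 had none. Signals were turned into log2(signal + 1.46), the offset being the 10th percentile of all values, and changes and folds are on that scale. The filter kept probe sets whose mean reached the 40th percentile (log2 4.18, signal 16.6), and the one with the highest mean stood for its gene. Models were fitted over all 12172 genes with limma 3.58.1 (variances moderated along the mean) in R 4.3.3, with Benjamini-Hochberg adjustment and a threshold of 0.05. AMH comparisons had the 8 pairs as a block, because both arms were drawn from 1 pool, per the labels' protocols; time comparisons had 4 group means and no block. As a check of the pairing, the correlation between paired arrays' deviations from the group means was 0.299, 0.349, 0.56 and 0.214 at 12 h and -0.437, 0.327, 0.2 and -0.287 at 24 h (pairs 1 to 4). The fits were tested on simulated data with independent noise. That test does not cover paired arrays that correlate or genes that move together. Plots came from matplotlib 3.10.9 (Python 3.11.15).

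The genes were set by name, and they, the lists and the tests were chosen with earlier results of these data known. Values per array are given for members past the threshold in a comparison and, where fewer than 6 passed, for those with the smallest p up to 6; Lss was added after its values were seen. Alternatives covered the offset, filter, scaling, probe sets, array weights, block, fewer arrays and each replicate left out from every group. Chosen after seeing the data were the oocyte mean as a covariate and the removal of 24 h pairs 1 and 4. With 4 arrays per group, their number limits the precision.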

Additional observations from a re-analysis of the deposited data

Results flagged for a closer look

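In 9 of 128 sets of 4 arrays (7.03%; chance gives about 5%), 1 array lay far from the other 3 of its group for 1 of these genes. Replicate 3 of the controls at 12 h was the low array in 5 of them: Lss had a log2 signal of 9.84 there, against 10.56 to 10.66 in the other 3, Srebf1 8.47 (9.03 to 9.10), Srebf2 9.20 (9.53 to 9.58), Scd2, a stearoyl-CoA desaturase, 10.89 (11.49 to 11.56) and Acaca 7.28 (7.90 to 7.93). Replicate 4 of the controls at 24 h was low for Msmo1, a sterol C4 methyl oxidase, at 11.00 (11.19 to 11.21). Replicate 1 of the AMH-treated follicles at 24 h was low for Fads2 at 8.89 (9.25 to 9.30). These 3 arrays had the highest oocyte marker mean of their groups; the part of that in the low values was not tested. Replicate 2 of the AMH-treated follicles at 12 h was high for Fads1 at 10.98 (10.39 to 10.48) and for Scd2 at 11.75 (11.11 to 11.21).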

How the results depend on the processing

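No alternative called any of the 32 genes with AMH at 24 h, at 12 h or in the difference between the times; dropping the replicate block also gave 0, 0 and 0. In AMH-treated follicles in time, 1 gene was called and the count was 2 under quantile normalization, 5 with array weights, 0 without 24 h pairs 1 and 4, and 0 to 1 with each replicate left out. In controls in time, 4 genes were called and the count was 9 with array weights, 2 without 24 h pairs 1 and 4, and 1 to 7 with each replicate left out (Scap alone without replicate 3). With a replicate block the counts in time were 1 with AMH and 6 in controls; a pool shared by both times is not stated in the labels. All other alternatives gave 1 with AMH and 3 to 6 in controls. The change of Fdps with AMH at 12 h ran from -0.51 to 0.022 with each replicate left out, and was 0.022 without replicate 4; that of Srebf2 ran from -0.31 to 0.0023, the last without replicate 1. The cause was not tested.

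Counts over all genes moved more. In AMH-treated follicles in time, 1008 genes were called, against 1857 with array weights, 564 under median centring, 331 without 24 h pairs 1 and 4 and 344 to 638 with a replicate left out, which leaves fewer arrays. In controls in time, 2330 genes were called, against 3945, 2485, 1229 and 1185 to 1552. With AMH at 24 h, 2 were called, against 7 with array weights, 0 without the replicate block and 0 to 1 with a replicate left out.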

Other observations

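Where a gene had several probe sets over the filter, their signs were compared. Of the 32 genes, 20 had more than 1 such probe set. All probe sets of a gene gave the same sign in 20 of these 20 genes for AMH minus control at 24 h, and in 10 of 20 at 12 h. The same share over all genes tested is not given here, and a shared sign does not mean a like size. For 24 h minus 12 h they did so in 16 of 20 with AMH and in 16 of 20 in controls. Probe sets of a gene share the same RNA, so this describes the arrays and not further samples.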
